A study of Homo sapiens with 12 samples.

Results

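The genes described here encode the nuclear subunits of mitochondrial ATP synthase and of cytochrome c oxidase (COX), the factors that assemble COX, and a pair of cytochromes. They were taken by symbol as every row beginning with ATP5 or with COX and a digit, together with CYC1 and CYCS, and 1 pseudogene (ATP5EP2) was left out. This gave 44 of the 4918 genes analysed, whose symbols run from A1BG to FAM46B. Of these, 28 are structural subunits, 9 are COX assembly factors, 2 are the cytochromes, and 5 are related genes that encode no subunit. Levels are in FPKM, the fragments mapped to a gene divided by its transcript length and by all mapped fragments of the sample, and 41 of the 44 averaged 1 FPKM or more over all samples.

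RNA was sequenced from A375, an established human melanoma cell line, in 12 samples. Control cells, SB-3CT, interferon gamma (IFNγ) and both agents at once (SB-3CT/IFNγ) made up 4 groups of 3 samples, and treatment lasted 24 h. The sample titles say only Control and name no vehicle. SB-3CT is an inhibitor of the gelatinases MMP2 and MMP9, and IFNγ is a cytokine that induces antigen presentation and PD-L1. The labels do not say whether replicates came from separate cultures, so p-values measure the spread between these samples only.

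In mitochondria, electrons pass from the cytochrome bc1 complex, which holds CYC1, through the soluble carrier CYCS to cytochrome c oxidase, which reduces oxygen and pumps protons. ATP synthase lets the protons back through its membrane sector (Fo), and the turning central stalk drives ATP synthesis in the head (F1). The catalytic core of COX and a few ATP synthase subunits are encoded in mitochondrial DNA and were not analysed here, whereas the small surrounding subunits and the factors that deliver copper and heme to the core are nuclear. Genes of this kind are known targets of the nuclear respiratory factors NRF1 and NRF2 (GABP, an ETS factor) and of YY1.

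The promoters of 5 members are shown because these genes stand for the patterns below, as the largest rise among subunits (ATP5I), the central stalk and head subunits that parted (ATP5C1 and ATP5A1), and the assembly factors that rose and fell most (COX17 and COX18). Each sequence runs 5′ to 3′ on the strand of the gene, from 250 bases before the start to 50 bases after it, and comes from RefSeq on GRCh38.p14. Capitals mark matches on either strand to an NRF1 core (GCGCATGC) or an ETS core (CCGGAAGT), and a capital run longer than 8 bases is a pair of overlapping NRF1 matches on opposite strands. The windows are chr4:674227-674526, chr18:46104178-46104477, chr3:119677357-119677656 and chr4:73069667-73069966 on the minus strand and chr10:7787927-7788226 on the plus strand.
ATP5I promoter: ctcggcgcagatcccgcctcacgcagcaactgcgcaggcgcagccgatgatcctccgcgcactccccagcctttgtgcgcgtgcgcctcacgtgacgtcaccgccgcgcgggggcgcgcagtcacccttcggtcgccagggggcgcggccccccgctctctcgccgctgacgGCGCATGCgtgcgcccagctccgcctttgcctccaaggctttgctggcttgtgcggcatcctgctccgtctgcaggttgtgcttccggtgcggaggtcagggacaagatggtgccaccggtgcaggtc
ATP5C1 promoter: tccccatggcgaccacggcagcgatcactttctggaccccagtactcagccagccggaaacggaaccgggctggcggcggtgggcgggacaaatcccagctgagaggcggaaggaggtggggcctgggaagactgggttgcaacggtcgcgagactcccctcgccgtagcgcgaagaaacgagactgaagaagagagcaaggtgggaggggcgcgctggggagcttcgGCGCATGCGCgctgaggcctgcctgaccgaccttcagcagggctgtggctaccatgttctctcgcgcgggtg
ATP5A1 promoter: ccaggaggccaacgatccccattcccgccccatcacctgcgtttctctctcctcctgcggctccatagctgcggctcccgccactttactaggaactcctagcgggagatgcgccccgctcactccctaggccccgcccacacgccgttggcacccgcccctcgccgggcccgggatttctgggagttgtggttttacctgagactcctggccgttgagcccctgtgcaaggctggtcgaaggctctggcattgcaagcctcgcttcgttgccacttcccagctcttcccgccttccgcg
COX17 promoter: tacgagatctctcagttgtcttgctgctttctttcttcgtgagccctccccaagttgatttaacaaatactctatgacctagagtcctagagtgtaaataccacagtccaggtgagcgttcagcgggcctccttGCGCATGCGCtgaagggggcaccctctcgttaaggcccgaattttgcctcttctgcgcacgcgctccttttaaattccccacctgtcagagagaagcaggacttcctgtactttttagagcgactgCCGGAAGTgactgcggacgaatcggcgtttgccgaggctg
COX18 promoter: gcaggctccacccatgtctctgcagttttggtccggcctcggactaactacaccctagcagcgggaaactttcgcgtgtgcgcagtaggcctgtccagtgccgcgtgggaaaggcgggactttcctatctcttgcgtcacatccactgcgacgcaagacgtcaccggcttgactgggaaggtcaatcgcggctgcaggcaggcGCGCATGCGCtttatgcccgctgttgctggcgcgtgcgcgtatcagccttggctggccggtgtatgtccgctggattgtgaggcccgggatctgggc

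The table of promoters held 34 of the 44 members. At least 1 of the NRF1, ETS and YY1 (AAGATGGC) cores was found in 16 of the 34 (47.1%), against 9.36% of all 35116 promoters and 11.6% of the 22199 promoters of protein-coding genes. The NRF1 core was in 9 members (26.5%, against 3.05% of all promoters), the ETS core in 7 (20.6%, against 4.14%) and the YY1 core in 5 (14.7%, against 2.89%). COX10 and COX10-AS1 start close together on opposite strands, and both were counted with an ETS and a YY1 core. The same sites could thus have been counted for both genes. Any of the cores was found in 10 of 22 structural subunits (45.5%) and in 4 of 8 assembly factors. A match is a description of the window only. The ATP5A1 window held none of the 3 cores, and neither did those of ATP5E, COX7B and COX7C, which rose in the first comparison below. Other genes that rose there held cores. The windows of COX15 and COX18, which fell there, held an ETS core and an NRF1 core, so the matches did not separate the genes by direction.

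The deposited values fit log2(FPKM + 1), and levels are given here as FPKM while changes are differences of log2(FPKM + 1), a scale on which low genes seem to change less than they do. FPKM is a share of the sample's RNA, so a change in the total RNA per cell does not show in it. Summed FPKM over the 4918 genes was 121928 to 129692 per sample. The absolute depth is unknown, and steps in the lowest values put the relative depth between 87.3% and 150% of the control mean. Of 5 melanocyte and melanoma markers, 4 reached FPKM 1, and 0 of 4 fibroblast, 0 of 3 leukocyte and 0 of 2 endothelial markers did so. The melanocyte marker that did not was DCT, at FPKM 0.384 or less in every sample. The summed level of the melanoma markers was 692 to 816, most of it from CD63 (mean of 662). The other 3 that reached FPKM 1 were lower in SB-3CT/IFNγ than in IFNγ (changes of -0.40 for AXL, -0.41 for CSPG4 and -0.36 for EDNRB, each with an adjusted p under 0.05 in limma). Their part in the results was not tested. Of 4 epithelial markers 1 reached it, at sums of 7.63 to 11.7. Changes were tested with limma at an adjusted p under 0.05, and the pairwise comparisons share samples with each other.

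Subunit genes were expressed far above the assembly factors. The 26 structural subunits averaging 1 FPKM or more ranged from 6.66 to 1866, with a median of 391. The 9 assembly factors ranged from 3.25 to 360, with a median of 22.9. COX7C, ATP5E, COX8A and COX6A1 led, each at 883 or more in every sample. At the other end stood COX18, which helps to insert a core COX subunit into the membrane, and COX19, a copper-related factor, at 2.62 to 5.78. The tissue isoforms COX6B2, of testis, and COX7A1, of heart and muscle, stayed at or below FPKM 0.321 in every sample, and the read-through gene ATP5J2-PTCD1 averaged 0.76. Together the 44 genes made up 11.5%, 12.1% and 11.2% of summed FPKM in the 3 control samples, 10.8%, 11.6% and 11.5% with SB-3CT, 9.44%, 11.8% and 10.1% under IFNγ, and 13.5%, 14.1% and 14.2% under SB-3CT/IFNγ. The sums run over the 4918 genes analysed only, so these are not shares of all RNA. In these shares the SB-3CT/IFNγ samples lay above all 9 others, and IFNγ replicate 2 lay apart from replicates 1 and 3.

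The first comparison asks what SB-3CT did in cells that also received IFNγ. Against IFNγ alone, 28 of the 44 genes were higher in the SB-3CT/IFNγ group, 3 were lower and 13 did not pass the test. Of all genes 6.41% were higher and 31.5% lower, with a median change of -0.20 over the 3177 genes averaging 1 FPKM or more. Median ratio scaling made these shares 15.5% and 16.5%, with 34 members higher and 0 lower. The median over the 41 members at that level was 0.37. Some of the higher genes, such as CYCS and ATP5F1, only came back near their control level or stayed below it, as given with IFNγ alone. Short transcripts as a class were higher in the same samples, and the count fell to 18 higher and 0 lower once the length trend of every sample was taken out at constant summed FPKM, and to 5 higher and 7 lower at a constant median. Among all genes these settings gave 8.26% higher and 12.3% lower, and 2.58% higher and 32.5% lower.

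**Figure D1:**
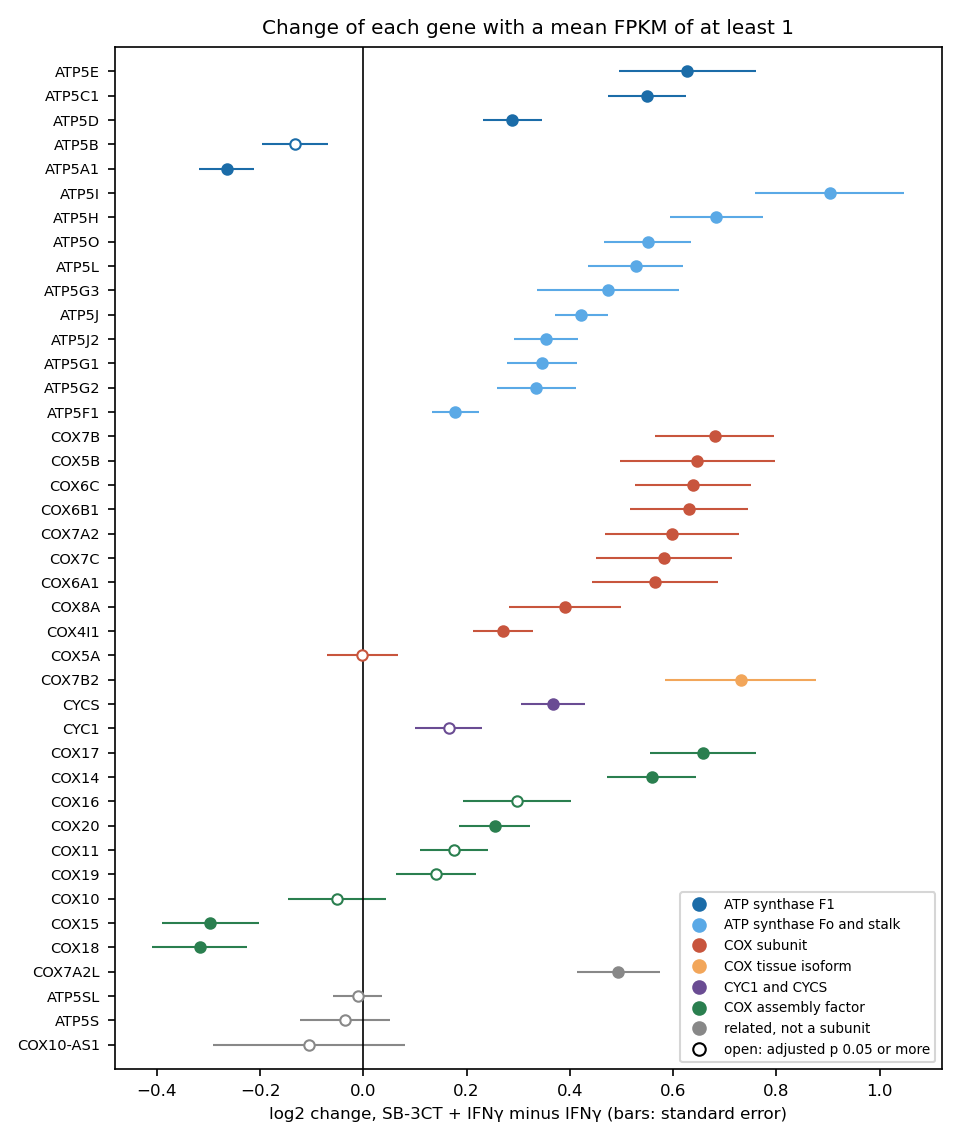
Log2 change of the 41 members averaging 1 FPKM or more between the SB-3CT/IFNγ and IFNγ groups (x axis, 3 samples each), grouped by role, with bars for the standard error and open points for an adjusted p of 0.05 or more. All 10 Fo and stalk genes lie to the right of 0, whereas ATP5A1, COX15 and COX18 are filled points on the left, and with the length trend removed and the median kept several filled points on the right change sign.

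In the membrane sector and peripheral stalk of ATP synthase 10 of 10 genes were higher, with changes from 0.18 to 0.90. ATP5I, which encodes the small membrane subunit e, had the largest change of all members. Its FPKM was 322, 462 and 320 in the IFNγ samples and 647, 735 and 657 in the SB-3CT/IFNγ samples, so the groups did not overlap although IFNγ replicate 2 was high. The change was 0.90 ± 0.15 (SE, adjusted p = 0.0037). ATP5H, the peripheral stalk subunit d, stood at 244, 309 and 259 against 423, 442 and 435, a change of 0.68 ± 0.09 (adjusted p = 0.0024). ATP5O, the subunit that ties the stalk to the head, changed by 0.55, ATP5L by 0.53, ATP5J by 0.42 and ATP5J2 by 0.35. ATP5F1, the stalk subunit b and the longest transcript of this group, had the smallest change of the 10, at 0.18 ± 0.04 (adjusted p = 0.018). With the length trend removed and the median kept, 4 of the 10 turned negative (ATP5G1 at -0.25, ATP5G2 at -0.015, ATP5J at -0.13 and ATP5J2 at -0.47), and ATP5J2 and ATP5G1 were also negative with the sum kept, at -0.24 and -0.024.

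Subunit c, which forms the proton-driven ring, is made from ATP5G1, ATP5G2 and ATP5G3, which encode the same mature protein behind different import signals. ATP5G1 rose by 0.35 ± 0.07 (adjusted p = 0.0069), ATP5G2 by 0.33 ± 0.08 (adjusted p = 0.012) and ATP5G3 by 0.47 ± 0.14 (adjusted p = 0.030). Of these, ATP5G1 and ATP5G2 are among the genes that turned negative without the length trend. In FPKM, ATP5G1 went from 258, 300 and 275 to 355, 343 and 360, and ATP5G2 from 367, 442 and 403 to 516, 509 and 502. ATP5G3 went from 94.1, 117 and 80.2 to 119, 135 and 147, with 117 and 119 close to touching. The order within the trio was the same throughout. ATP5G2 gave 48.5% to 53.5% of their summed FPKM in all 12 samples, ATP5G1 33.7% to 36.6% and ATP5G3 10.6% to 16.6%. The ATP5G3 share was 14.84% to 16.6% in the control samples, with SB-3CT replicate 2 (14.77%) and SB-3CT/IFNγ replicate 3 (14.59%) just below.

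The head of ATP synthase did not move together. The central stalk genes ATP5C1 (γ subunit), ATP5D (δ subunit) and ATP5E (ε subunit) were higher, whereas ATP5A1, which encodes the α subunit of the catalytic hexamer, was lower. ATP5C1 stood at 146, 177 and 155 FPKM in the IFNγ samples and 228, 234 and 237 in the SB-3CT/IFNγ samples (0.55 ± 0.08, adjusted p = 0.0027). ATP5A1 stood at 197, 187 and 182 against 152, 161 and 157 (-0.27 ± 0.05, adjusted p = 0.0076). Neither gene had overlapping groups. ATP5D was at -0.19 with the length trend removed and the median kept. ATP5B, the β subunit that binds ATP at the catalytic sites, was at 569, 517 and 551 against 519, 485 and 488, a change of -0.13 ± 0.06 that did not pass (adjusted p = 0.15). Under median ratio scaling, which moved the median of all genes from -0.20 to 0.00, the ATP5A1 change was -0.03 and that of ATP5B 0.11, both uncalled.

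The difference between ATP5C1 and ATP5A1 within a sample, on the log2 scale, was 0.53 to 0.59 in the SB-3CT/IFNγ samples. It was -0.19 to 0.07 in the controls, -0.15 to 0.04 with SB-3CT and -0.43 to -0.08 with IFNγ, so the combined treatment lay above the other 9 samples. ATP5B minus ATP5A1, both genes of the hexamer, ranged from 1.46 to 1.81 over all 12 samples. It was 1.61, 1.81 and 1.69 in the SB-3CT samples, above the 1.504 to 1.508 of the controls, and 1.77, 1.58 and 1.63 with SB-3CT/IFNγ, which overlapped the 1.46 to 1.59 of IFNγ. Such differences do not depend on the scaling by a single factor, but the transcripts differ in length, with a median of 1090 bases for ATP5C1, 2102 for ATP5A1 and 1759 for ATP5B.

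**Figure D2:**
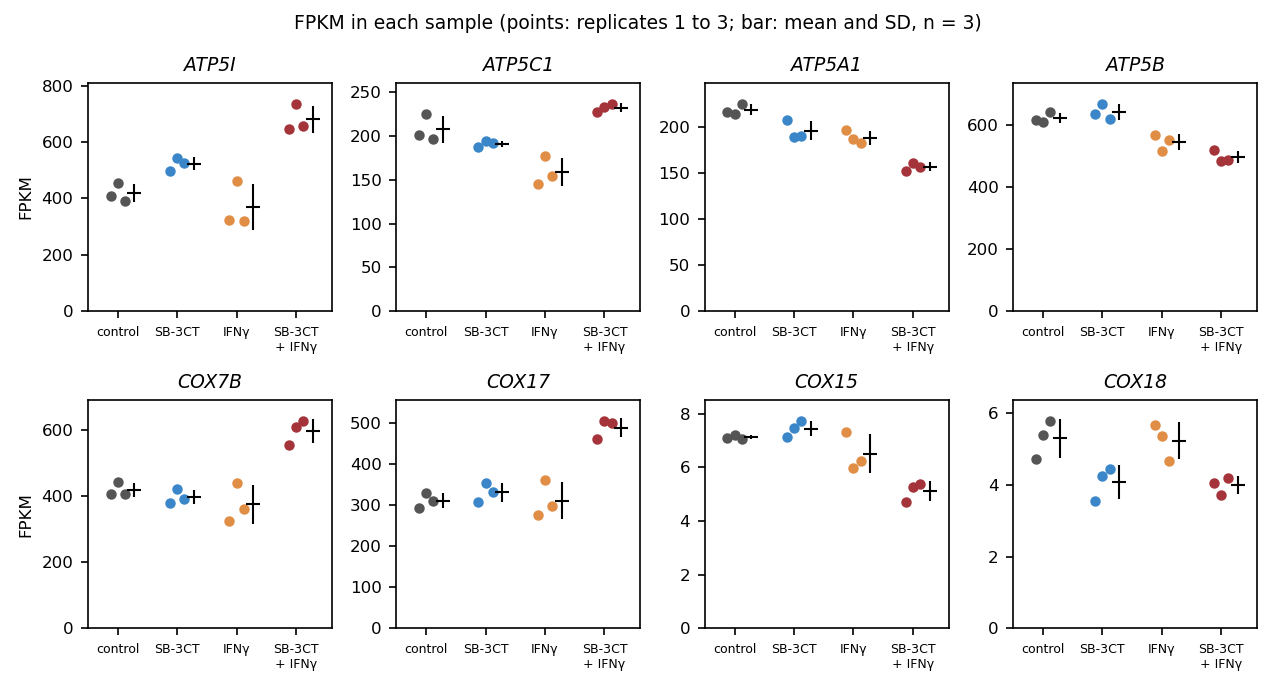
FPKM (y axis, from 0) of 8 genes in each of the 12 samples (points, x axis by group), with the mean and SD of each group of 3. ATP5I, ATP5C1, COX7B and COX17 are highest with SB-3CT/IFNγ, ATP5A1, ATP5B and COX15 are lowest there, COX18 is low in both SB-3CT groups, and IFNγ replicate 2 lies above replicates 1 and 3 for ATP5I, ATP5C1, COX7B and COX17.

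Of the 10 common COX subunits, 9 were higher in the SB-3CT/IFNγ group and COX5A did not pass. COX7B, a small membrane subunit, stood at 324, 441 and 360 FPKM with IFNγ and 556, 610 and 628 with SB-3CT/IFNγ (0.68 ± 0.12, adjusted p = 0.0043). COX5B, COX6C, COX6B1, COX7A2, COX7C and COX6A1 changed by 0.65, 0.64, 0.63, 0.60, 0.58 and 0.56. COX8A changed by 0.39 and COX4I1, the subunit known for nucleotide regulation of the enzyme, by 0.27 ± 0.06 (544, 558 and 533 against 672, 636 and 664, adjusted p = 0.0096). Under quantile normalization COX4I1 turned to -0.08. With the length trend removed and the median kept, COX4I1 (-0.16), COX6A1 (-0.035), COX6B1 (-0.010), COX7A2 (-0.056) and COX8A (-0.25) turned negative, and COX8A did so with the sum kept as well (-0.018). COX5A was at 178, 155 and 159 against 172, 159 and 159, with overlapping groups and a change of -0.0023 ± 0.07 (adjusted p = 0.98), although its transcripts are as short as those of its neighbours (median 575 bases). COX6C and CYCS share their symbols with 17 and 42 annotated pseudogenes, and reads from such copies could have been split by the counting.

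COX7B2, a testis isoform of COX7B that is low in most tissues, rose from 4.95, 6.44 and 5.09 to 8.11, 11.95 and 9.44 FPKM (0.73 ± 0.15, adjusted p = 0.0075). Every SB-3CT/IFNγ sample was above every IFNγ sample. COX7A2L, which helps to join respiratory complexes into supercomplexes and is not counted here as a subunit, rose by 0.49 ± 0.08 (122.5, 149.3 and 124.9 against 190, 188 and 180, adjusted p = 0.0039). Its median transcript length of 2282 bases is far above that of the COX subunits, and its change was 0.68 with the length trend removed and the sum kept. CYCS, which also triggers apoptosis when released from mitochondria, rose by 0.37 ± 0.06 (50.4, 50.7 and 50.4 against 62.1, 71.6 and 63.0, adjusted p = 0.0044). Its controls were at 64.7, 66.1 and 63.2, so CYCS with both agents was near its control level. CYC1 was at 314, 349 and 326 against 390, 357 and 363 and did not pass (0.17 ± 0.06, adjusted p = 0.083). ATP5S, ATP5SL, COX10-AS1 and ATP5J2-PTCD1 did not pass either, with changes of -0.04, -0.01, -0.11 and 0.51.

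The COX assembly factors were mixed, with 3 higher, 2 lower and 4 that did not pass, and a median change of 0.17. The copper chaperone COX17 rose from 275, 360 and 296 to 460, 504 and 499 FPKM (0.66 ± 0.10, adjusted p = 0.0034). COX14, which acts on the newly made core subunit COX1, rose from 136, 171 and 147 to 226, 212 and 229 (0.56 ± 0.09, adjusted p = 0.0034). COX20, a chaperone of the core subunit COX2, rose from 19.1, 21.9 and 19.7 to 23.6, 25.7 and 23.6 (0.25 ± 0.07, adjusted p = 0.024). The groups of these 3 genes did not overlap. With the length trend removed 5 assembly factors were higher when the sum was kept and 1 when the median was kept.

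Lower levels were found for COX15, which makes heme A, and for COX18. COX15 went from 7.33, 5.99 and 6.24 FPKM to 4.70, 5.27 and 5.37 (-0.30 ± 0.09, adjusted p = 0.042), and COX18 from 5.67, 5.35 and 4.66 to 4.06, 3.71 and 4.20 (-0.32 ± 0.09, adjusted p = 0.031). Neither gene had overlapping groups, but both are low, and both calls were lost under median ratio scaling (-0.09 and -0.12). With the length trend removed and the sum kept, COX15 was at 0.01 and COX18 at 0.05. Heme A synthesis starts with COX10, which was at 10.2, 7.73 and 8.65 against 8.32, 8.65 and 8.40 (-0.05 ± 0.10, adjusted p = 0.72). COX11, a copper factor, was at 23.0, 24.7 and 22.5 against 27.2, 24.6 and 27.9 (0.17 ± 0.07, adjusted p = 0.074), COX16 at 36.4, 48.1 and 37.7 against 47.2, 51.2 and 51.5 (0.30 ± 0.10, adjusted p = 0.058) and COX19 at 3.12, 3.16 and 3.22 against 3.81, 3.54 and 3.43 (0.14 ± 0.08, adjusted p = 0.20).

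Structural subunits and assembly factors differed in their counts, with 23 of 28 against 3 of 9 higher and medians of 0.54 and 0.17, a difference of 0.36. That difference was -0.04 under quantile normalization and -0.01 with the length trend removed under either setting, so the contrast between the roles did not hold under these settings. Within a sample, the median log2 level of the 26 structural subunits minus that of the 9 assembly factors was 3.76 to 3.86 in the controls, 3.92 to 3.99 with SB-3CT, 3.84 to 4.01 with IFNγ and 4.18 to 4.25 with SB-3CT/IFNγ. The highest values were thus in the SB-3CT/IFNγ samples. The median level of the structural subunits alone was 8.85 to 8.87 there, 8.18, 8.53 and 8.22 with IFNγ, and 8.43 to 8.59 in the 6 samples without IFNγ. That of the assembly factors was 4.62 to 4.68, no higher than the 4.69 to 4.73 of the controls. This middle value is the level of COX20 in every sample except SB-3CT/IFNγ replicate 2, where it is that of COX11. It thus does not describe all 9 factors. The mean log2 levels of COX14, COX16, COX17 and COX19 were above the controls there, and those of COX10, COX11, COX15, COX18 and COX20 were below them.

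**Figure D3:**
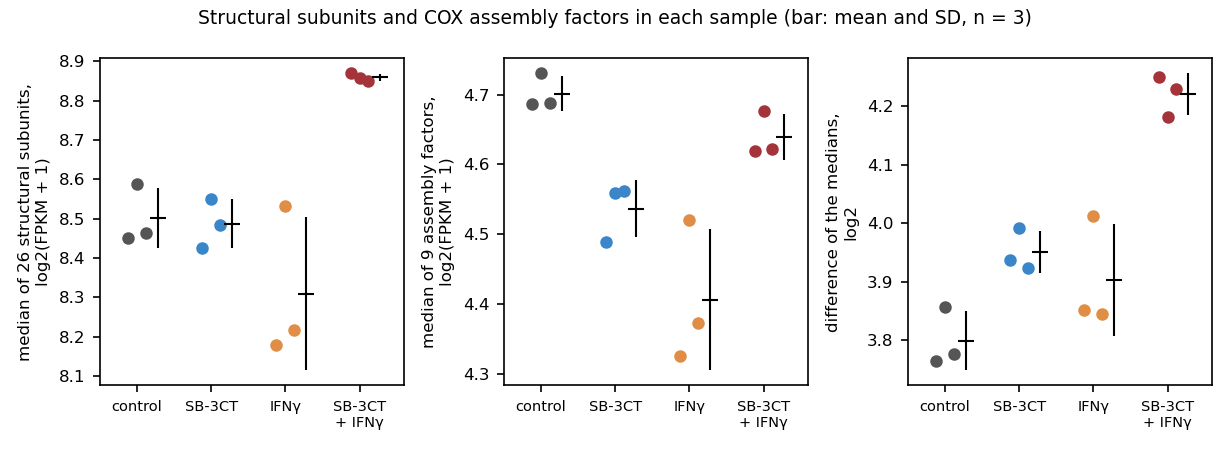
Median log2(FPKM + 1) of the 26 structural subunits (left) and of the 9 assembly factors (middle) and the difference of these medians (right) in each sample (points, x axis by group), with the mean and SD of each group of 3. The structural median and the difference are highest in the 3 SB-3CT/IFNγ samples, whereas the assembly median is highest in the controls. The assembly median is the level of COX20, or of COX11 in SB-3CT/IFNγ replicate 2. The difference of the changes between the roles is -0.01 once the length trend is removed.

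Transcript length moved with these changes. Median transcript length was 639 bases for the structural subunits, 1887 for the assembly factors and 2443 for all genes averaging 1 FPKM or more. Among the genes outside the group, the median change between SB-3CT/IFNγ and IFNγ was 0.30 for the 101 genes of up to 750 bases, 0.07 for the 556 of 750 to 1500 bases, -0.17 for the 1259 of 1500 to 3000 bases, -0.36 for the 922 of 3000 to 6000 bases and -0.49 for the 274 above 6000 bases. The median of the members was above that of the other genes in each class, although COX5A, ATP5D, ATP5SL and ATP5A1 lay below the median of theirs. The members had medians of 0.59 (18 genes, 17 higher), 0.35 (10 genes, 8 higher) and 0.07 (10 genes, 3 higher and 1 lower) in the first 3 classes, -0.08 for the 2 genes COX15 and COX19, and -0.32 for COX18. Of the other genes of up to 750 bases, 50.5% were higher and 7.92% lower.

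Across the 9 assembly factors the change fell with log2 length, with Pearson's r at -0.89 and Spearman's rho at -0.90, and across the 26 structural subunits with an r of -0.53 and a rho of -0.40. The same held for the 3112 other genes (r of -0.59, rho of -0.60). These are correlations across genes of the same libraries, and genes are not independent replicates. ATP5E and COX7A2L changed by 0.63 and 0.49 at median lengths of 1878 and 2282 bases, in a class whose other genes had a median of -0.17, although the 1878 bases of ATP5E are long beside its coding length of 153. Whether a technical difference between the libraries or a change in the cells lies behind the length trend was not tested.

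**Figure D4:**
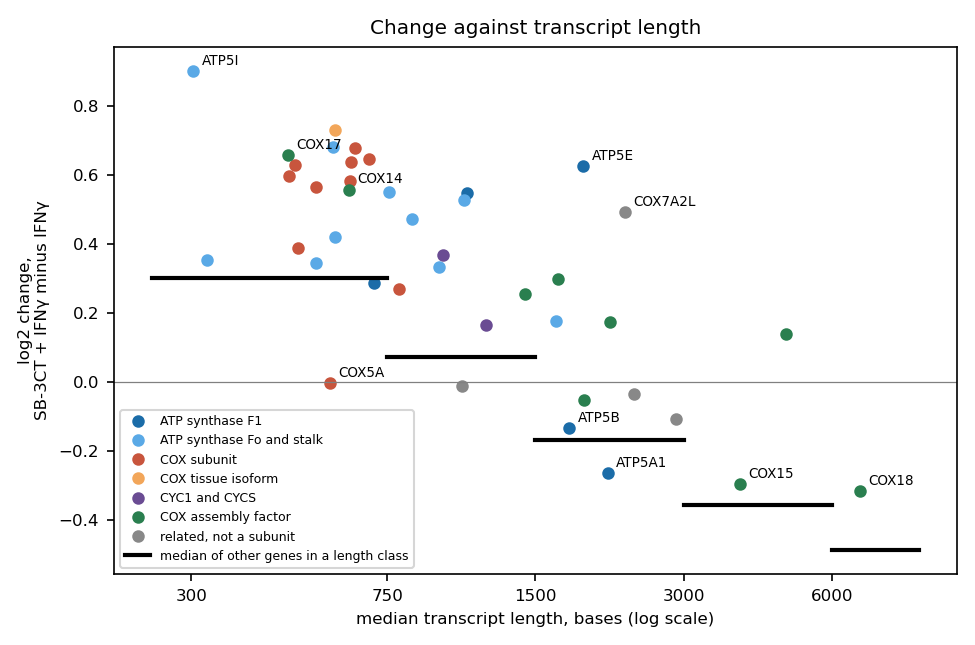
Log2 change between the SB-3CT/IFNγ and IFNγ groups (y axis) against median transcript length (x axis, log scale) for the 41 genes, coloured by role, with black lines for the median change of all other genes in 5 length classes. The lines step down from 0.30 to -0.49, COX17 and COX14 sit with the short subunits, and COX15 and COX18 sit at the long end.

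SB-3CT alone changed few of these genes, in shares close to those of all genes. Against control 2 were higher (5.37% of all genes were) and 3 lower (6.87% of all genes), and the median over the 41 members was -0.04. The count of lower members was 1 under median ratio scaling, and with the length trend removed it was 6 with the sum kept and 5 with the median kept. The shares of all genes lower in these settings were 6.89%, 8.58% and 7.95%. ATP5I rose from 409, 455 and 392 to 497, 543 and 526 FPKM (0.32 ± 0.07, adjusted p = 0.030). ATP5SL, also named DMAC2, rose from 39.5, 37.9 and 37.7 to 42.5, 44.5 and 44.3 (0.19 ± 0.04, adjusted p = 0.031). Neither gene had overlapping groups.

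The 3 lower genes were ATP5S, ATP5F1 and COX20. ATP5S went from 5.02, 5.48 and 4.94 to 3.91, 4.02 and 3.91 (-0.31 ± 0.07, adjusted p = 0.034). ATP5F1 went from 128, 129 and 133 to 110, 113 and 119 (-0.19 ± 0.04, adjusted p = 0.034), and COX20 from 24.7, 25.5 and 24.8 to 21.5, 22.6 and 22.6 (-0.17 ± 0.04, adjusted p = 0.049). All 3 were without overlap, but the 5 calls of this comparison were lost when any control sample, or SB-3CT replicate 2 or 3, was left out. COX18 was at 3.54, 4.23 and 4.44 against 4.72, 5.38 and 5.78, a change of -0.31 ± 0.10 that did not pass (adjusted p = 0.088). The remaining assembly factors changed by -0.17 to 0.22 and the COX subunits by -0.08 to 0.16, with no call.

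With IFNγ alone every called change was toward a lower level, although 4 of the 41 members averaging 1 FPKM or more had a positive change. Against control 0 members were higher and 9 lower (8.46% and 11.0% of all genes). Of the 3177 genes averaging 1 FPKM or more, 350 were higher and 465 lower. The median over the 41 members was -0.17, against -0.04 over all genes at that level. Of the other genes of 750 to 1500 bases 20.7% were lower, beside 6 of the 10 members of that length. Up to 750 bases 14.9% were lower, beside 0 of 18 members. The count of lower members was 3 under median ratio scaling (10.7% of all genes were) and 14 with all groups in one fit (14.4% of all genes). In limma 35 members did not pass, and at an unadjusted p under 0.05 there were 0 higher and 15 lower. The share of all genes at that unadjusted threshold was not counted, so the 15 have no background beside them. The lower genes were 5 ATP synthase genes (ATP5A1, ATP5C1, ATP5F1, ATP5G3 and ATP5O), COX4I1, CYCS, COX11 and COX20. ATP5F1 had the clearest change, from 128, 129 and 133 to 95.0, 98.2 and 96.6 FPKM (-0.42 ± 0.04, adjusted p = 0.00081). CYCS went from 64.7, 66.1 and 63.2 to 50.4, 50.7 and 50.4 (-0.35 ± 0.03, adjusted p = 0.0015). With both agents the mean FPKM of CYCS (65.6 against 64.6) and ATP5G3 (134 against 134) was near that of the controls. So was that of COX4I1 (657 against 640) and COX20 (24.3 against 25.0). ATP5F1 (109 against 130), COX11 (26.5 against 29.3) and ATP5A1 (157 against 219) were below the controls. ATP5C1 (233 against 208) and ATP5O (262 against 228) were above them.

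ATP5C1 was at 201, 225 and 197 in the controls and 146, 177 and 155 with IFNγ (-0.38 ± 0.09, adjusted p = 0.028), and ATP5O at 228, 234 and 223 against 162, 202 and 173 (-0.35 ± 0.08, adjusted p = 0.032). ATP5G3 had the largest fall, -0.48 ± 0.13, at the edge of the threshold (138, 136 and 128 against 94.1, 117 and 80.2, adjusted p = 0.0496). Groups did not overlap for any of these genes. IFNγ replicate 2 was the highest of its group for ATP5C1, ATP5O and ATP5G3, and without it 16 members were lower (10.0% of all genes were). Without any other sample of this comparison 2 to 4 were, beside 5.82% to 10.8% of all genes. Among the assembly factors COX11 changed by -0.31 ± 0.07 (adjusted p = 0.025) and COX20 by -0.30 ± 0.06 (adjusted p = 0.018), and COX14 and COX17, which rose with the combined treatment, were at 0.0021 and -0.0053.

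The SB-3CT/IFNγ group was also set against SB-3CT, which asks what IFNγ added in the presence of the inhibitor and shares the SB-3CT/IFNγ samples with the first comparison. Here 21 members were higher, 5 lower and 18 did not pass, beside 7.85% and 32.7% of all genes. Median ratio scaling made those shares 13.4% and 11.1%. With the length trend removed and the sum kept 13 members were higher, beside 8.54% of all genes higher and 19.2% lower. In that setting 4 structural subunits and 1 assembly factor were lower. With the median kept 6 members were higher and 14 lower, beside 5.88% and 36.9% of all genes. The largest rises were COX14 (129, 156 and 148 against 226, 212 and 229, 0.62 ± 0.08, adjusted p = 0.0019), COX7B (380, 421 and 392 against 556, 610 and 628, 0.59 ± 0.06, adjusted p = 0.0015) and ATP5E (1411, 1468 and 1534 against 2031, 2296 and 2228, 0.57 ± 0.07, adjusted p = 0.0019). COX17 changed by 0.56 and COX7B2 by 0.55. In none of these 5 genes did the groups overlap.

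The 5 lower genes were COX15 (-0.47 ± 0.07, adjusted p = 0.0031), ATP5B (-0.37 ± 0.05, adjusted p = 0.0030), ATP5A1 (-0.32 ± 0.05, adjusted p = 0.0041), COX5A (-0.22 ± 0.06, adjusted p = 0.030) and ATP5SL (-0.18 ± 0.03, adjusted p = 0.0089). ATP5B was at 637, 669 and 618 FPKM with SB-3CT and 519, 485 and 488 with both agents, and ATP5A1 at 208, 190 and 191 against 152, 161 and 157. Both hexamer genes were thus below their SB-3CT levels while 7 of the 10 Fo and stalk genes were above theirs. Under median ratio scaling 0 members were lower, and COX5A (0.03) and ATP5SL (0.06) changed sign.

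Whether SB-3CT acted differently with and without IFNγ was tested as a difference of the 2 changes over all 12 samples. The SB-3CT change was more positive with IFNγ for 26 members and more negative for 2 (ATP5SL and COX15), and 16 did not pass. Of all genes 4.74% and 17.6% were called in these directions, and 7.77% and 5.59% under median ratio scaling. Short transcripts as a class were more positive here too. Of the 101 other genes of up to 750 bases 39.6% were more positive and 2.97% more negative, beside 15 and 0 of the 18 members of that length. Among the structural subunits 20 of 28 were called, all more positive, and among the assembly factors COX11, COX14, COX17 and COX20 were more positive. COX7B had the largest difference, 0.76 ± 0.14 (adjusted p = 0.0061), from changes of 0.68 with IFNγ and -0.08 without it, and ATP5G3 followed with 0.74 ± 0.20 (adjusted p = 0.025). For ATP5G3 the 2 changes were 0.47 and -0.27 and the SB-3CT samples were at 95.8, 137 and 104 FPKM, the last 2 of them on either side of 119 in SB-3CT/IFNγ replicate 1.

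ATP5I rose with SB-3CT in both settings, by 0.32 without IFNγ and by 0.90 with it, a difference of 0.58 ± 0.17 (adjusted p = 0.035). With the length trend removed this difference was -0.04 (sum kept) or -0.24 (median kept). COX18 changed by -0.31 without IFNγ and by -0.32 with it, a difference of -0.01 ± 0.14 (adjusted p = 0.99). For ATP5A1 (-0.11 ± 0.07, adjusted p = 0.30) and ATP5B (-0.17 ± 0.08, adjusted p = 0.12) no difference was called. The count of members with a more positive change was 14 with the length trend removed and the sum kept and 9 with the median kept. Of all genes 4.23% were more positive and 4.11% more negative with the sum kept, and 2.05% and 17.6% with the median kept. The count of members was 16 to 28 when each sample was left out in turn, lowest without IFNγ replicate 3.

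**Figure D5:**
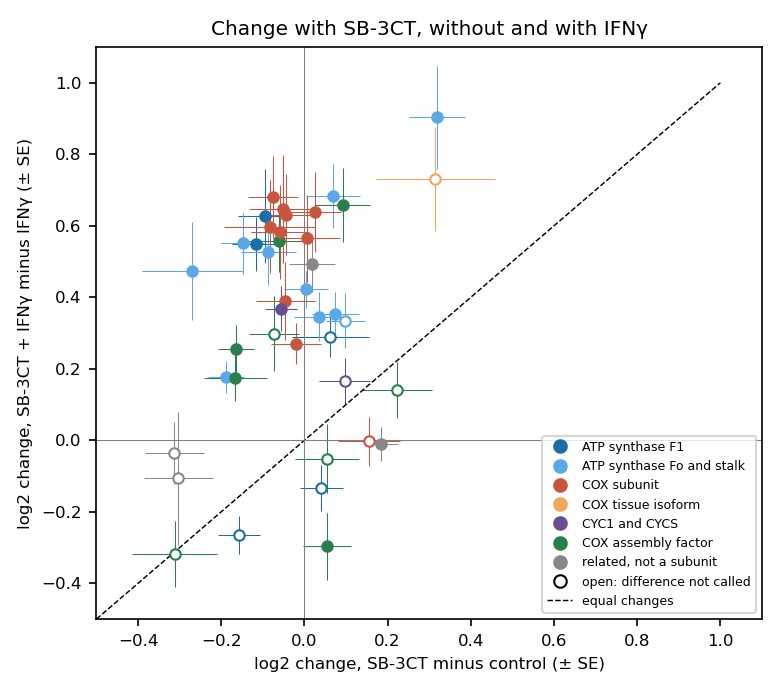
Log2 change with SB-3CT in the presence of IFNγ (y axis) against the change without IFNγ (x axis) for the 41 genes, with standard errors, coloured by role, filled where the difference of the 2 changes had an adjusted p under 0.05. Most subunits lie well above the dashed line of equal changes, COX18 and ATP5A1 lie near it as open points, and COX15 is a filled point below it, although the sign of the ATP5I difference turns once the length trend is removed.

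Other genes of mitochondrial energy metabolism were counted from lists written with earlier results of these data known. Of 20 other assembly and accessory factors of the respiratory complexes and ATP synthase, 13 were higher and 3 lower in SB-3CT/IFNγ against IFNγ, beside 6.41% and 31.5% of all genes. The largest rises were C14orf2, a small ATP synthase-associated protein (0.71 ± 0.13, adjusted p = 0.0063), and COA6, a copper factor of COX (0.62 ± 0.07, adjusted p = 0.0021). The largest falls were ACAD9, a complex I assembly factor (-0.37), and COA7 (-0.35). Of 11 coenzyme Q genes 0 were higher in limma (1 at an unadjusted p under 0.05) and 2 lower (COQ10B, -0.37, and COQ7, -0.25), a share of lower genes no larger than that of all genes. Of 8 genes of the citric acid cycle, the pyruvate dehydrogenase complex and the electron transfer flavoproteins 0 were higher (0 at an unadjusted p under 0.05) and 4 lower, among them DLAT (-0.58) and DLD (-0.51), both of the pyruvate dehydrogenase complex. Median transcript length was 1026 bases for the accessory factors, 1482 for the coenzyme Q genes and 2562 for the last list.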

How the data were processed

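RNA from 12 samples of A375 cells was sequenced, and per the labels the authors used HISAT2 2.0.5 for alignment to hg19 and StringTie 1.3.3 for FPKM. The gene annotation, the strandedness of the libraries and the read numbers are not given in the sources used here. The authors deposited values that fit log2(FPKM + 1) (highest 12.16), so the tests, laid out for FPKM, were run without taking logarithms again, and FPKM was recovered as 2 to the power of the value minus 1. Column names gave the sample of each column, and 0 columns stayed unused. The symbols run from A1BG to FAM46B.

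Tests used limma 3.58.1 under R 4.3.3 (moderated linear models, eBayes with trend, two-sided and unpaired) on the 3 + 3 samples of a comparison, and the difference of the SB-3CT changes was fitted over all 12. The Benjamini-Hochberg adjustment covered all 4918 genes. An exact permutation test of 3 samples against 3 cannot give a p under 0.1. The code for these tests was checked on simulated data. Replicate numbers did not pair the samples, since correlations of their deviations ran from -0.39 to 0.17, and so no block was used in the main fits.

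The members and lists were chosen with earlier results of these data known. Values per sample are given for the 5 largest rises and the 5 largest falls among members in each pairwise comparison (adjusted p under 0.05, mean FPKM of at least 1, no overlap), for all COX assembly factors, and for CYC1, CYCS, ATP5A1, ATP5B, ATP5I, COX4I1 and the ATP5G genes. Others were named for their role after their values were seen. Transcript length is the median over the basic transcripts of GENCODE release 44 on GRCh37. All 44 members were matched, 19 through an older symbol. Of them 25 have annotated pseudogenes and 20 overlap a gene on the opposite strand, so their counts could hold reads of other genes. Alternatives were a smaller pseudocount (0.1), a filter at mean FPKM 1, median ratio scaling, quantile normalization, removal of each sample's length trend (lowess, span 0.3), all groups in one fit, the replicate block, eBayes without trend, fold and p thresholds, and each sample left out in turn.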

Additional observations from a re-analysis of the deposited data

Results flagged for a closer look

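For 28 genes the change with SB-3CT differed between cells with and without IFNγ, by the test of the difference itself over all 12 samples (limma, adjusted p under 0.05). Of all genes 4.74% were more positive and 17.6% more negative by this test. Values are the change with IFNγ minus the change without it, on the log2(FPKM + 1) scale. Among the ATP synthase genes they were 0.74 for ATP5G3, 0.72 for ATP5E, 0.70 for ATP5O, 0.67 for ATP5C1, 0.62 for ATP5H, 0.61 for ATP5L, 0.58 for ATP5I, 0.42 for ATP5J, 0.37 for ATP5F1, 0.31 for ATP5G1 and 0.28 for ATP5J2. Among the COX subunits they were 0.76 for COX7B, 0.70 for COX5B, 0.68 for COX7A2, 0.67 for COX6B1, 0.64 for COX7C, 0.61 for COX6C, 0.56 for COX6A1, 0.44 for COX8A and 0.29 for COX4I1. The assembly factors COX14, COX17, COX20 and COX11 had 0.62, 0.57, 0.42 and 0.34, and COX15 had -0.35. CYCS had 0.42, COX7A2L 0.48 and ATP5SL -0.20. The length trend of all genes moved with these differences, and its part in them was not tested beyond the alternatives below.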

How the results depend on the processing

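Counting error could not be given because the read numbers are unknown, and low genes such as COX15 and COX18 are the least precise. With each sample's length trend removed and its median kept, SB-3CT/IFNγ against IFNγ had 5 members higher and 7 lower, and the structural minus assembly difference was -0.015. ATP5D (-0.19), ATP5G1 (-0.25), ATP5G2 (-0.015), ATP5J (-0.13), ATP5J2 (-0.47), COX4I1 (-0.16), COX6A1 (-0.035), COX6B1 (-0.010), COX7A2 (-0.056) and COX8A (-0.25) changed sign. SB-3CT against control had 1 higher and 5 lower, the structural minus assembly difference of IFNγ against control was -0.015, and SB-3CT/IFNγ against SB-3CT had 6 higher, 14 lower and a structural minus assembly difference of -0.081. For the difference of the SB-3CT changes there were 9 higher, 5 lower and -0.089 between the roles, with ATP5G1 (-0.25), ATP5I (-0.24), ATP5J (-0.099), ATP5J2 (-0.51), COX17 (-0.053), COX4I1 (-0.091), COX6A1 (-0.0021) and COX8A (-0.16) reversed. With the summed FPKM kept instead, the first comparison had 18 higher and 0 lower and -0.015 between the roles, with ATP5G1 (-0.024), ATP5J2 (-0.24), COX8A (-0.018), COX15 (0.013) and COX18 (0.053) reversed. SB-3CT against control then had 6 lower, IFNγ against control -0.022 between the roles, SB-3CT/IFNγ against SB-3CT 13 higher and -0.074, and the difference of the SB-3CT changes 14 higher and -0.053, with ATP5G1 (-0.052), ATP5I (-0.040) and ATP5J2 (-0.32) reversed. These settings take out by construction what moves with length. The shares of all genes under these settings stand beside the counts above.

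Quantile normalization gave -0.045 between the roles in the first comparison with COX15 (0.015) and COX4I1 (-0.083) reversed, -0.037 for IFNγ against control, 3 lower and -0.030 for SB-3CT/IFNγ against SB-3CT, and 1 lower, 0.014 and ATP5J2 (-0.0026) reversed for the difference. Median ratio scaling gave 0 lower in the first comparison, 1 in SB-3CT against control, 3 in IFNγ against control, 0 in SB-3CT/IFNγ against SB-3CT with ATP5SL (0.061) and COX5A (0.029) reversed, and 0 in the difference with ATP5SL (0.0062) reversed. A fold over 1.5 with an unadjusted p under 0.05 left 10 higher and 0 lower in the first comparison, 0 and 0 in SB-3CT against control, 0 lower in IFNγ against control, 2 and 0 against SB-3CT, and 13 and 0 in the difference. All groups in one fit gave 1 higher in SB-3CT against control and 14 lower in IFNγ against control, and a mean FPKM of at least 1 gave 6 lower in SB-3CT against control. With the replicate block, whose numbers did not pair the samples, there was 1 lower in the first comparison, 1 higher and 0 lower in SB-3CT against control, 3 lower against SB-3CT and 1 lower in the difference. Among all genes, quantile normalization called 17.0% lower against SB-3CT and 7.02% lower in the difference. All groups in one fit called 6.43% higher in SB-3CT against control, and the filter at mean FPKM 1 called 16.8% lower there. The replicate block called 26.9% lower in the first comparison, 21.9% against SB-3CT and 17.2% in the difference. In SB-3CT against control it called 2.56% higher and 2.70% lower. The cause of these moves was not tested.

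With each sample left out in turn, the first comparison had 18 (without IFNγ replicate 3) to 30 (without IFNγ replicate 2) higher and 1 to 3 lower. SB-3CT against control had 0 to 2 higher, 0 to 4 lower and -0.022 to 0.067 between the roles. IFNγ against control had 2 to 16 lower and -0.16 to -0.0036 between the roles, and SB-3CT/IFNγ against SB-3CT 0.26 to 0.33 between the roles. The difference of the SB-3CT changes had 16 to 28 higher, 0 to 3 lower and 0.13 to 0.32 between the roles. Of 37 genes followed in the first comparison, 4 kept their direction and side of the threshold under all these alternatives, 21 changed side and 12 reversed.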
